A study of Homo sapiens with 18 samples.

Results

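The genes described here encode the coactivators YAP (gene YAP1) and TAZ (gene WWTR1), the TEAD transcription factors that carry them to DNA (TEAD1, TEAD2, TEAD3 and TEAD4) and the vestigial-like proteins VGLL1, VGLL3 and VGLL4, which bind the same surface of TEAD. They were chosen by symbol. Of 9 listed genes, 8 have a row in both deposited count tables, which list 18978 genes for H1299 and 20335 for A549, and VGLL1 is not analysed here. The study asked how loss of YAP and loss of TAZ compare in non-small cell lung cancer cells. RNA-seq of poly(A) RNA covered 6 groups of 3 libraries, 18 in all, made from an established pair of human lines. H1299, a lung carcinoma line, was grown in RPMI-1640 and A549, a lung adenocarcinoma line, in DMEM. In each line the cells had received an siRNA SMARTpool, a mixture of siRNAs, against YAP (siYAP) or against TAZ (siTAZ), or a control siRNA (siControl). All cells were transfected at 30 nM for 48 h and spent the final 18 h without serum. Transient pools lower a transcript without removing the gene, and only RNA was measured. Libraries are named by siRNA and number (siYAP 1), and values follow libraries 1, 2 and 3. Nothing in the labels ties replicates to separate cultures, so p-values rest on how far libraries spread within groups, and that spread may be technical. Unless only the compared groups were fitted, the fits of counts estimate it over all groups of a line, or of both lines jointly. They share it in part across genes, and a library outside a comparison can change its p-value. Line, medium and deposited table go together and cannot be told apart.

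YAP and TAZ bind no DNA themselves. When the LATS kinases of the Hippo pathway phosphorylate them, they are held in the cytoplasm or degraded. Otherwise they enter the nucleus, bind a TEAD factor and switch on genes for growth, adhesion and the cytoskeleton. VGLL4 competes with them for TEAD and is known as an antagonist, while VGLL1 and VGLL3 are TEAD partners that can take the place of YAP and TAZ.

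The promoters of the genes that the siRNAs were aimed at are shown first, because they carry, or lack, the letters to which TEAD factors are known to bind. Each is a RefSeq window (GRCh38.p14) of 300 bases, from 250 before to 50 after an annotated start, written 5′ to 3′ on the gene's strand in lower case. Capitals mark GGAATG, searched on both strands. YAP1 has one window on the plus strand (chr11:102110197-102110496). WWTR1 has windows at an inner and an outer start on the minus strand (chr3:149657976-149658275 and chr3:149703224-149703523).
YAP1: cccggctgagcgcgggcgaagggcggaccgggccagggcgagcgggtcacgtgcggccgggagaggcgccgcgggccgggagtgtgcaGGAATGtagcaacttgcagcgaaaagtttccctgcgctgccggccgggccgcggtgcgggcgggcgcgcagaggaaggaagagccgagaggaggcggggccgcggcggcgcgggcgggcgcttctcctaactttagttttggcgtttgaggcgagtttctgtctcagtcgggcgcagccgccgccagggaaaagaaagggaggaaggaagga
WWTR1, inner start: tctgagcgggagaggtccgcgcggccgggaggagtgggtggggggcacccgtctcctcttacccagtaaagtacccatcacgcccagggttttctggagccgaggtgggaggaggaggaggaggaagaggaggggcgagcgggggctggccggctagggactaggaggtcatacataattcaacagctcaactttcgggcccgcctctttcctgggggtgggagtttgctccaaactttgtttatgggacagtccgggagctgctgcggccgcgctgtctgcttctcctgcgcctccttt
WWTR1, outer start: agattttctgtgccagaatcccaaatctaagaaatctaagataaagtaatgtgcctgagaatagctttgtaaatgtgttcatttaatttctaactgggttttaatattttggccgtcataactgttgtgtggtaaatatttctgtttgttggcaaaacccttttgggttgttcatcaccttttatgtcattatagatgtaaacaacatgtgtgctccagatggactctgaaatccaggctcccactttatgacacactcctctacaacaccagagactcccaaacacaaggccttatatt
In YAP1 the 6 letters lie 162 bases before the start on the gene's own strand, and neither WWTR1 window holds them. RefSeq windows were matched for 7 of the 9 genes (13 windows in all), with none for TEAD1 and TEAD4. GGAATG occurred in 2 of the 13, those of YAP1 and VGLL1, while 14.0% of all 35116 windows of that length hold it. The letters TGANTCA, to which AP-1 factors are known to bind, occurred in 0 of the 13 and in 7.71% of all windows, and the motifs do not overlap. A match describes letters and does not show binding.

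Libraries of H1299 held 16.8 to 20.8 M reads assigned to genes (median 18.8 M), and those of A549 held 10.7 to 45.0 M (median 20.7 M). Levels are given in CPM (counts per M assigned reads after TMM scaling) or, to compare genes, in TPM (counts scaled by the exon length in GENCODE release 29). The epithelial keratin and adhesion list (6 genes) summed to 331 to 513 CPM over the 5 with a row in the H1299 libraries and to 3411 to 5816 CPM over all 6 in the A549 libraries. A mesenchymal list of 4 (VIM, CDH2, FN1 and ZEB1) summed to 2453 to 3664 CPM in H1299 and to 1195 to 2065 CPM in A549. The members did not all follow these sums (control means, H1299 against A549). VIM (3094 against 515 CPM) and CDH2 (49.5 against 21.6 CPM) were higher in H1299. FN1 was lower there (66.3 against 879 CPM), and ZEB1 stood at 28.5 against 25.9 CPM. Of the epithelial list, CLDN4 was higher in H1299 (16.4 against 7.98 CPM). KRT8, KRT18, KRT19 and EPCAM were higher in A549, and CDH1 has a row in A549 alone. A fibroblast list, 3 of whose 4 genes have a row in H1299, summed to 9.50 to 12.5 CPM after siYAP and 7.87 to 11.2 CPM after siTAZ, against 5.06 to 5.78 CPM in H1299 controls. In A549 it overlapped between groups (4.64 to 11.2 CPM over 2 of the 4). Of further lists in H1299, a neuronal pair summed to 56.6 to 79.7 CPM after siYAP and 54.7 to 57.0 CPM after siTAZ, against 61.4 to 77.7 CPM in controls, while NKX2-1, the only one of 4 alveolar type II genes with a row, stood at 0.952 to 1.14 CPM after siYAP and 0.803 to 1.22 CPM after siTAZ, against 0.119 to 0.573 CPM in controls. The part of these lists in the results was not tested. Immune and endothelial lists stayed at or below 8.79 CPM in every library. In bulk RNA, fewer cells of a kind and less RNA per cell cannot be told apart. Changes are log2 fold changes ± their standard error from edgeR's quasi-likelihood test, with Benjamini-Hochberg adjustment over all genes tested in a comparison, and a gene was called when its adjusted p was below 0.05. Libraries of the same number varied together, so values fitted with that number as a replicate block are added where they change a call.

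In control cells TAZ transcripts outnumbered YAP transcripts in both lines. Per length, WWTR1 was the most abundant of the 8 genes, at 95.9 ± 14.3 TPM in H1299 and 56.3 ± 1.99 TPM in A549 (SD, n = 3 each). YAP1 stood at 40.7 ± 3.80 TPM in H1299 and 24.8 ± 0.0766 TPM in A549. The ratio of YAP1 to WWTR1 per length was 0.427 ± 0.0248 in H1299 and 0.440 ± 0.0167 in A549, so YAP1 made up 29.9 ± 1.21% and 30.6 ± 0.805% of the pair. The lines overlapped in this ratio (exact permutation test on its log2, two-sided, p = 0.4, where 3 libraries against 3 cannot go below 0.1).

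The TEAD genes were ordered differently in the lines. In H1299 controls TEAD4 led with 56.4 ± 2.81 TPM, followed by TEAD2 (31.9 ± 6.98), TEAD1 (21.5 ± 2.64) and TEAD3 (14.3 ± 2.71), and no neighbours in that order of 4 overlapped. In A549 controls TEAD1 led with 33.3 ± 2.06 TPM, followed by TEAD4 (17.8 ± 3.63), TEAD2 (14.0 ± 2.72) and TEAD3 (8.44 ± 0.956), where TEAD4 and TEAD2 overlapped. TEAD4 made up 45.7 ± 5.66% of TEAD transcripts in H1299 and 24.1 ± 2.97% in A549. TEAD1 made up 17.3 ± 0.807% in H1299 and 45.5 ± 3.16% in A549. Among all 8 genes, YAP1 and TEAD2 overlapped in H1299, as did TEAD3 and VGLL4, and in A549 TEAD2 and VGLL4 overlapped. VGLL4 stood at 14.1 ± 4.13 TPM in H1299 and 13.2 ± 0.989 TPM in A549, and VGLL3 was lowest at 0.286 ± 0.0824 TPM in H1299 and 3.15 ± 0.263 TPM in A549. The place of VGLL4 depends on the length used. With its longest annotated transcript, VGLL4 lay above TEAD3 in H1299 controls (16.1 to 27.9 against 9.76 to 13.6 TPM). In A549 controls it then lay above TEAD2 (19.4 to 22.6 against 11.3 to 16.6 TPM).

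**Figure D1:**
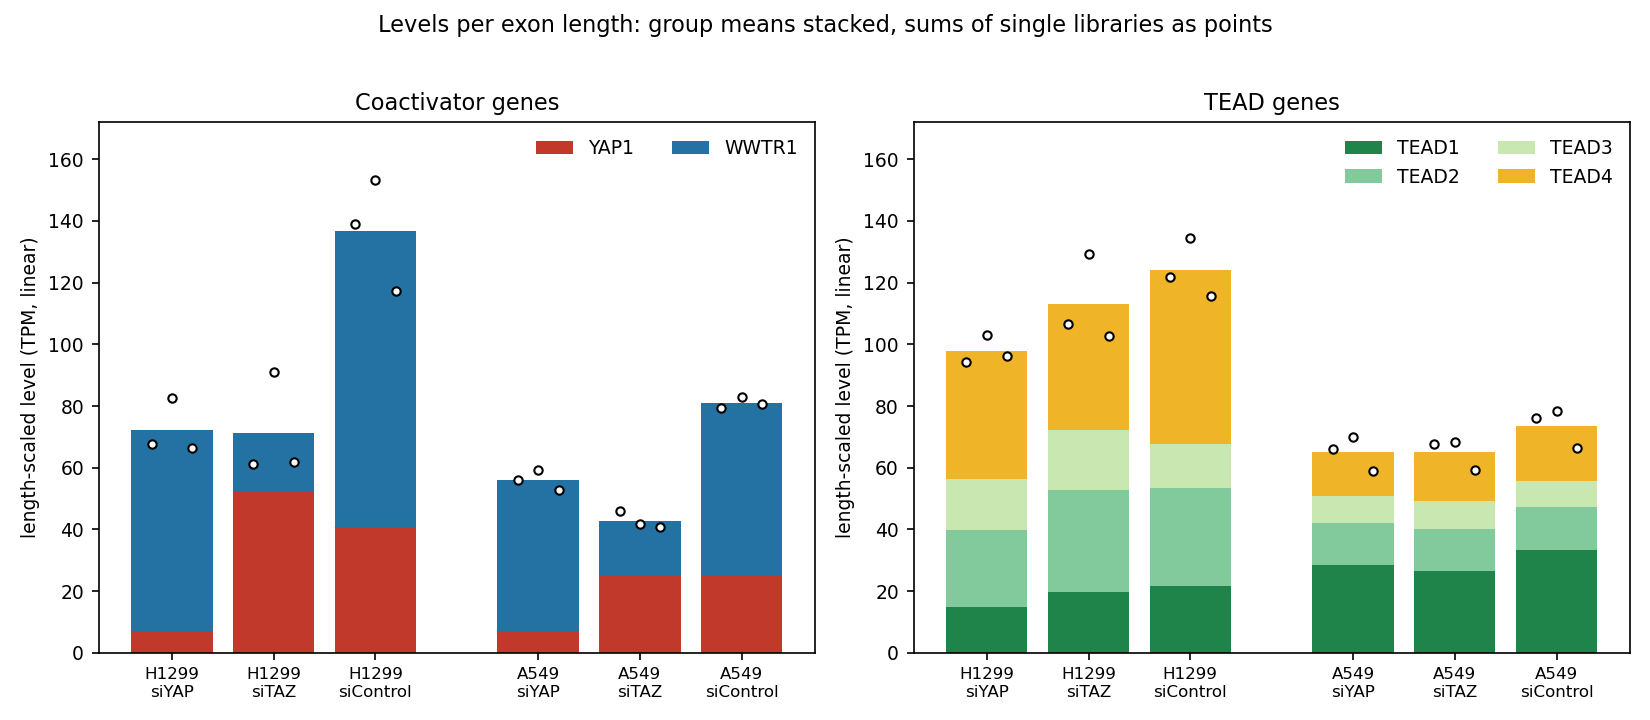
Length-scaled levels (TPM, linear axis) of YAP1 and WWTR1 (left) and of the TEAD genes (right) in the 6 groups, stacked as group means, with the sum in each of 3 libraries as a point. YAP1 and WWTR1 together, a sum that includes the target of each pool, lie below control in every knockdown group. TEAD4 leads in H1299 and TEAD1 in A549.

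A joint fit of all 18 libraries, over 15816 genes found in both tables, compared the control cells of the lines. It called 5 of the 8 genes, where 74.7% of all genes were called, a share near that of the members. VGLL3 differed most, with a log2 difference of -3.99 ± 0.20 (H1299 over A549, adjusted p = 3.18e-12) and 1.55, 0.834 and 1.12 CPM in H1299 controls against 13.9, 15.7 and 15.4 CPM in A549 controls. It had 14 to 27 reads per H1299 library, so its changes there are poorly resolved. TEAD1 was lower in H1299 (-1.17 ± 0.11, adjusted p = 3.13e-08). TEAD4 (1.11 ± 0.16, adjusted p = 4.32e-06) and TEAD2 (0.63 ± 0.14, adjusted p = 0.000736) were higher there.

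VGLL4 was called lower in H1299 (-0.46 ± 0.13, adjusted p = 0.00332), but its sign depended on the scaling, since the difference was -0.22 with library totals alone (adjusted p = 0.141) and 0.10 in TPM of each table. YAP1 (0.17 ± 0.13, adjusted p = 0.223), WWTR1 (0.22 ± 0.24, adjusted p = 0.409) and TEAD3 (0.22 ± 0.16, adjusted p = 0.219) did not pass. With library totals alone YAP1 (0.40, adjusted p = 0.00783) and TEAD3 (0.45, adjusted p = 0.0141) passed. The scalings move all genes together. The median log2 difference over all genes was 0.02 in the joint fit, 0.24 with library totals alone, 0.34 in CPM of each table and 0.56 in TPM of each table, so levels set across the lines are best read against those medians. VGLL4 lay below the median in each of these (-0.46, -0.22, -0.14 and 0.10 in the same order). With the replicate block TEAD3 was called as well (0.21 ± 0.10, adjusted p = 0.0492), making 6 of 8 where 81.2% of all genes were called.

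**Figure D2:**
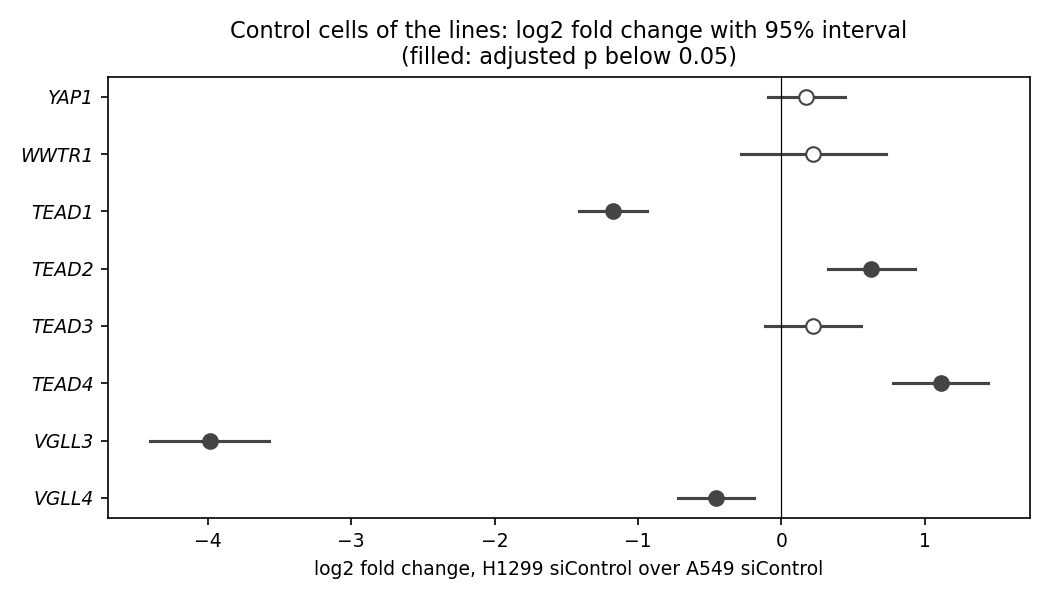
Log2 fold change of each gene in H1299 controls over A549 controls (x axis) from the joint fit, with 95% intervals, where filled points passed an adjusted p of 0.05. VGLL3 and TEAD1 lie to the left at -3.99 and -1.17, TEAD4 and TEAD2 to the right at 1.11 and 0.63, and the intervals of YAP1, WWTR1 and TEAD3 include 0.

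Each pool lowered its own transcript in both lines. YAP1 (chromosome 11, 102110461 to 102233423, GRCh38) fell to 12.8, 19.6 and 11.7 CPM in siYAP libraries of H1299, against 83.6, 83.8 and 77.9 CPM in controls. It fell to 17.0, 15.5 and 19.5 CPM in siYAP libraries of A549, against 59.6, 56.9 and 58.3 CPM in controls. No siYAP library reached the lowest control. The log2 fold change was -2.48 ± 0.15 in H1299 (adjusted p = 2.6e-06) and -1.76 ± 0.09 in A549 (adjusted p = 9.1e-05). As shares of the control mean, 15.7, 24.0 and 14.4% were left in H1299 and 29.2, 26.5 and 33.5% in A549.

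WWTR1 (chromosome 3, 149517235 to 149736714, minus strand) fell to 36.1, 82.7 and 29.05 CPM in siTAZ libraries of H1299, against 265, 276 and 229 CPM in controls. In A549 it fell to 70.7, 50.9 and 51.6 CPM in siTAZ libraries, against 174, 179.8 and 176 CPM in controls. Here too no knockdown library reached the lowest control, and the log2 fold change was -2.38 ± 0.28 in H1299 (adjusted p = 0.000334) and -1.62 ± 0.12 in A549 (adjusted p = 0.00218). The shares left were 14.1, 32.2 and 11.3% in H1299 and 40.0, 28.8 and 29.2% in A549. In H1299 library 2 kept the most of both targets, YAP1 after siYAP and WWTR1 after siTAZ.

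**Figure D3:**
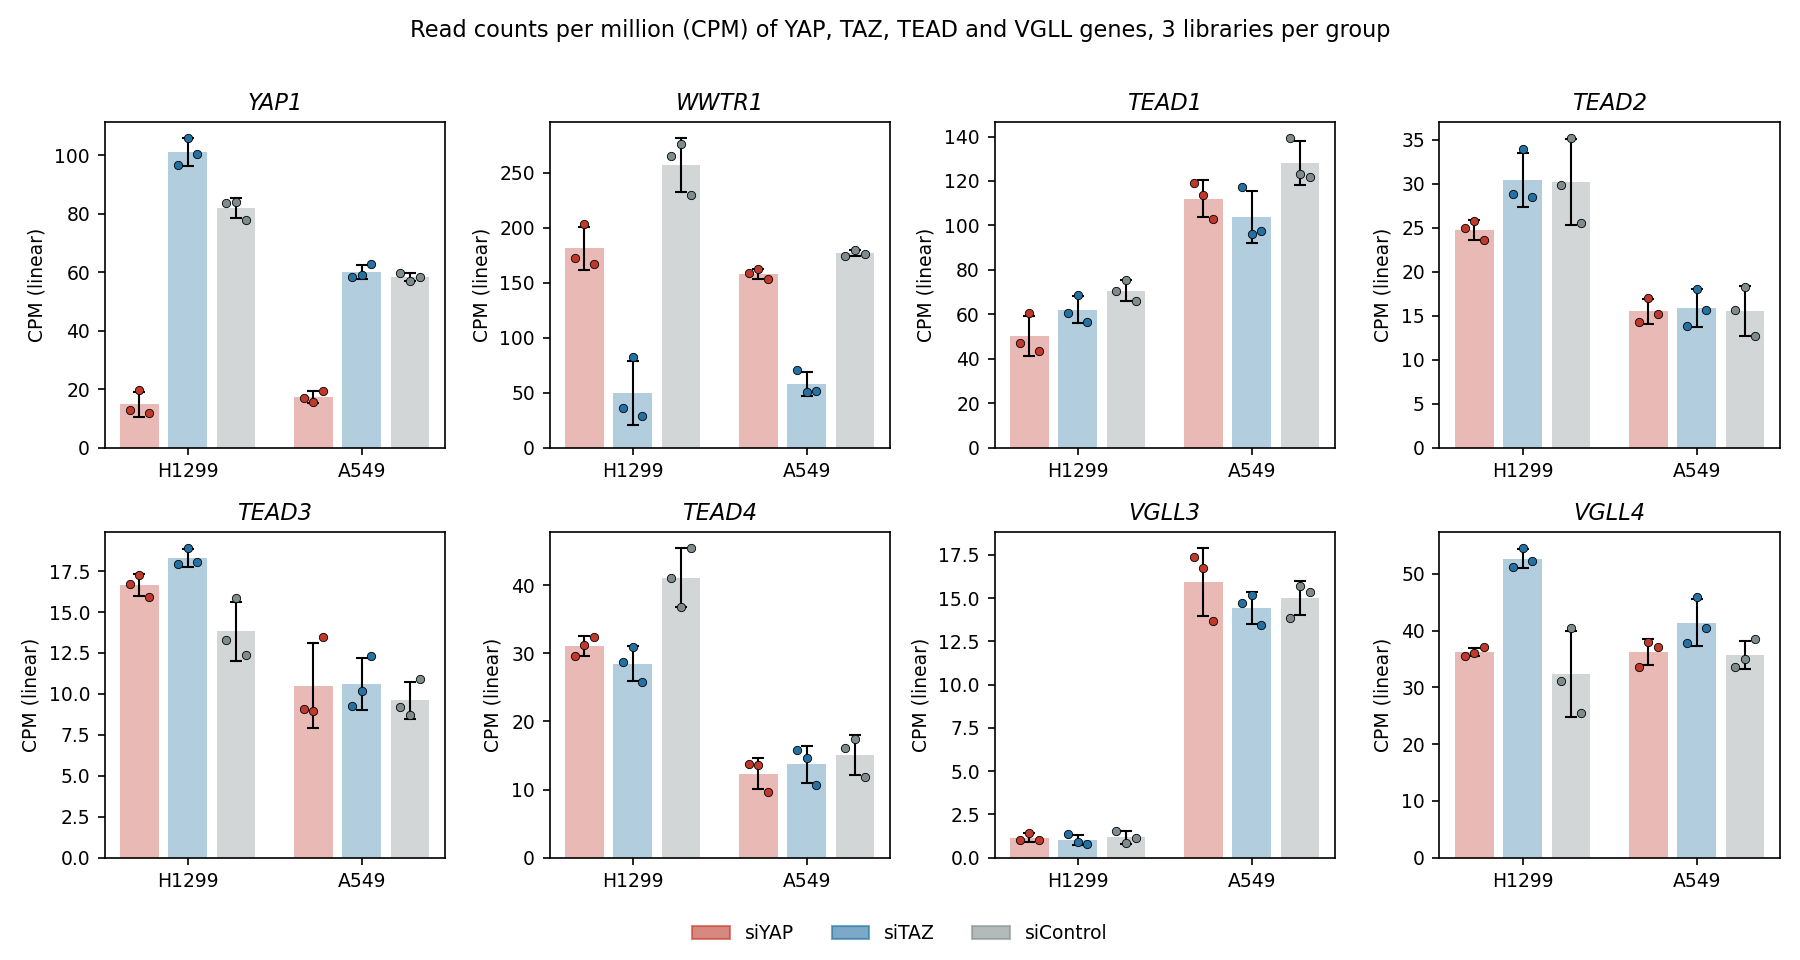
CPM (linear axes from 0) of the 8 genes in siYAP, siTAZ and siControl libraries of H1299 (left in each panel) and A549 (right). Points are libraries, bars are group means and error bars are SD over 3 libraries. YAP1 is low after siYAP and WWTR1 after siTAZ in both lines, and VGLL3 is near 1 CPM in H1299.

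The levels of each coactivator under the pool aimed at the other were compared next. With siYAP, WWTR1 stood at 173, 203 and 167 CPM in H1299, against 265, 276 and 229 CPM in controls. All siYAP libraries lay below all controls. The change missed the threshold without the block (-0.51 ± 0.26, adjusted p = 0.204) and passed it with the block (-0.51 ± 0.17, adjusted p = 0.0398). The call with the block was lost without the libraries numbered 1 (adjusted p = 0.170) or 3 (adjusted p = 0.0762). With no block it was called without siTAZ 2 (-0.51, adjusted p = 0.00527) and in a fit of only the siYAP and siControl libraries (-0.50, adjusted p = 0.00718). The siTAZ libraries are in neither group compared and enter only through the shared fit. In A549, WWTR1 stood at 158, 162 and 153 CPM after siYAP, below all controls, a difference of -0.16 ± 0.12 that did not pass with or without the block (adjusted p = 0.0846 with it and 1 without it).

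The level of YAP1 was higher after siTAZ in H1299. It stood at 96.5, 106 and 100.5 CPM in siTAZ libraries of H1299, against 83.6, 83.8 and 77.9 CPM in controls, with every siTAZ library above every control. Without the block the difference of 0.30 ± 0.13 missed the threshold (adjusted p = 0.117), and with it the gene was called (0.30 ± 0.10, adjusted p = 0.0316), though not when the libraries numbered 1 (adjusted p = 0.0732) or 3 (adjusted p = 0.148) were left out of the blocked fit. With no block it passed without siYAP 2 (0.31, adjusted p = 0.0145) and in a fit of only the siTAZ and siControl libraries (0.31, adjusted p = 0.0211). Here the siYAP libraries enter only through the shared fit. In A549, YAP1 stood at 58.4, 58.9 and 62.7 CPM after siTAZ, overlapping the controls (log2 0.04 ± 0.09, 95% interval -0.15 to 0.24).

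Each pool shifted the mixture of YAP1 and WWTR1 transcripts. Each was designed to lower a member of the pair, so the direction of the shift is no separate result. Per length, the ratio of YAP1 to WWTR1 was 0.107 ± 0.0191 after siYAP and 3.30 ± 1.47 after siTAZ in H1299, against 0.427 ± 0.0248 in controls. In A549 it was 0.147 ± 0.0216 after siYAP and 1.42 ± 0.280 after siTAZ, against 0.440 ± 0.0167 in controls. With the longest annotated transcript as the length, the log2 ratio after siTAZ in A549 was -0.03 instead of 0.49, so which of the pair is then more abundant is not settled.

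The sum of YAP1 and WWTR1 in H1299 was 72.2 ± 9.11 TPM after siYAP and 71.4 ± 17.0 TPM after siTAZ, against 137 ± 18.1 TPM in controls. In A549 it was 56.0 ± 3.25 TPM after siYAP and 42.8 ± 2.83 TPM after siTAZ, against 81.0 ± 1.92 TPM in controls. With the longest transcript as the length, the H1299 sums were 93.6, 73.5 and 163 TPM after siYAP, after siTAZ and in controls. Whether the siYAP and siTAZ sums of H1299 are alike thus depends on the length used. In all 4 knockdown groups every library lay below every control of its line. Each exact two-sided permutation test on the log2 sum gave p = 0.1, the smallest it can give. It was 0.139 after Benjamini-Hochberg adjustment over the 25 tests of such sums and ratios. The sum holds the target of each pool, whose fall the pool was designed to cause, so a lower sum is no separate result. The same holds for the ratio of the pair and for coactivators per TEAD transcript, which are among the 25 tests. Coactivator transcripts per TEAD transcript were 0.737 ± 0.0603 after siYAP and 0.626 ± 0.0683 after siTAZ in H1299, against 1.098 ± 0.0725 in controls. In A549 they were 0.863 ± 0.0280 after siYAP and 0.659 ± 0.0419 after siTAZ, against 1.11 ± 0.0954 in controls. Control cells of the lines overlapped in this ratio (exact permutation test, two-sided, p = 1), with a log2 difference of -0.0099. By the longest transcript, the ratio was 0.966 after siYAP, 0.662 after siTAZ and 1.33 in controls of H1299. In A549 it was then 1.14, 0.744 and 1.37 in the same order. TEAD transcripts summed to 97.8 ± 4.49 TPM after siYAP and 113 ± 14.3 TPM after siTAZ in H1299, against 124 ± 9.61 TPM in controls. In A549 they summed to 65.1 ± 5.68 TPM after siYAP and 65.1 ± 5.00 TPM after siTAZ, against 73.6 ± 6.36 TPM in controls.

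The order of the 8 genes per length was read in the knockdown groups as well. After siYAP, WWTR1 stayed first in H1299 at 65.1 ± 7.04 TPM and in A549 at 48.9 ± 3.74 TPM, and YAP1 came next to last at 7.09 ± 2.07 TPM and 7.13 ± 0.496 TPM, above VGLL3 alone. After siTAZ, YAP1 came first in H1299 at 52.0 ± 4.91 TPM, and WWTR1 at 19.3 ± 12.4 TPM overlapped its neighbour TEAD3 at 19.5 ± 1.51 TPM. In A549 siTAZ libraries TEAD1 at 26.4 ± 2.97 TPM and YAP1 at 24.9 ± 0.640 TPM overlapped at the top, with WWTR1 at 17.9 ± 3.45 TPM, whose place against YAP1 depends on the length used, as above.

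TEAD1 and TEAD4 fell after siYAP in H1299. There siYAP called 3 of the 8 genes, YAP1 itself, TEAD1 and TEAD4, all lower, where 16.6% of all 15775 genes were called (8.75% lower and 7.89% higher). With the block 5 of 8 were called, all lower, where 28.3% of all genes were called. Both counts include YAP1, whose fall the pool was designed to cause. TEAD1 (chromosome 11, 12674591 to 12944483, plus strand), a TEAD factor present in most tissues, stood at 46.9, 60.4 and 43.4 CPM after siYAP, against 70.4, 75.3 and 66.1 CPM in controls, with no overlap. It fell (-0.49 ± 0.12, adjusted p = 0.0138). Library 2 had the highest TEAD1 level in each H1299 group, in siYAP 2, where most YAP1 was left, but also in siControl 2 and siTAZ 2 (68.5 CPM). The call was lost without siYAP 1 (-0.46, adjusted p = 0.0586) or siYAP 3 (-0.39, adjusted p = 0.0757).

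TEAD4 (chromosome 12, 2959330 to 3040673, plus strand), known from muscle and from the trophectoderm of the mouse, fell with both pools in H1299. It stood at 29.6, 31.2 and 32.4 CPM after siYAP and 28.8, 30.9 and 25.8 CPM after siTAZ, against 41.1, 36.8 and 45.5 CPM in controls, and every knockdown library lay below every control. The log2 fold change was -0.40 ± 0.10 after siYAP (adjusted p = 0.0164) and -0.53 ± 0.10 after siTAZ (adjusted p = 0.00315), and these comparisons share their controls. The siYAP call was lost without siControl 1 (-0.41, adjusted p = 0.0581), siControl 3 (-0.34, adjusted p = 0.0683) or siYAP 1 (-0.38, adjusted p = 0.0661), and with the block without the libraries numbered 1 (adjusted p = 0.0834) or 3 (adjusted p = 0.0546). The siTAZ call held without any single H1299 library.

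TEAD2 passed with the block alone after siYAP, and TEAD3 rose after siTAZ. TEAD2 (chromosome 19, 49340595 to 49362457, minus strand), a factor known from embryonic tissues, stood at 24.9, 25.7 and 23.6 CPM after siYAP and 28.8, 34.0 and 28.4 CPM after siTAZ in H1299, against 29.9, 35.2 and 25.5 CPM in controls, and knockdown and control libraries overlapped for both pools. The siYAP difference of -0.29 ± 0.12 passed with the block alone (-0.28 ± 0.09, adjusted p = 0.026, against 0.114 without it), and in no blocked fit that left out 1 of the 3 numbers (adjusted p of 0.154, 0.121 and 0.0556). Without siControl 3 it passed with no block (-0.41, adjusted p = 0.0448). After siTAZ TEAD2 did not pass (0.01 ± 0.12, adjusted p = 0.956). TEAD3 (chromosome 6, 35473597 to 35497076, minus strand), a factor known from placenta, stood at 16.7, 17.2 and 15.9 CPM after siYAP and 18.0, 18.9 and 18.0 CPM after siTAZ, against 13.3, 15.8 and 12.4 CPM in controls, and both knockdown groups lay above all controls. It rose after siTAZ (0.40 ± 0.11, adjusted p = 0.0198), a call lost without siControl 1 (0.39, adjusted p = 0.0778), siControl 3 (0.33, adjusted p = 0.0903) or siTAZ 3 (0.43, adjusted p = 0.0536). With the block it was lost without the libraries numbered 1 (adjusted p = 0.0631) or 3 (adjusted p = 0.1001). After siYAP its difference of 0.27 ± 0.11 did not pass (adjusted p = 0.122) and passed without siControl 2 (0.37, adjusted p = 0.0409) and with the block without the libraries numbered 2 (0.35, adjusted p = 0.0139).

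After siTAZ in H1299, 4 of the 8 genes were called, WWTR1 and TEAD4 lower and TEAD3 and VGLL4 higher. Over all genes 23.3% were called, 12.4% lower and 10.9% higher. With the block YAP1 joined them, making 5 of 8 where 35.5% of all genes were called. Both counts include WWTR1, whose fall the pool was designed to cause. TEAD1 stood at 60.8, 68.5 and 56.6 CPM after siTAZ and did not pass (-0.19 ± 0.12, adjusted p = 0.267). As shares of TEAD transcripts per length in H1299, TEAD4 made up 42.3 ± 2.43% after siYAP and 36.0 ± 1.00% after siTAZ, against 45.7 ± 5.66% in controls. TEAD3 made up 16.9 ± 0.514% after siYAP and 17.3 ± 0.956% after siTAZ, against 11.4 ± 1.26% in controls. TEAD4 had the highest mean of the TEAD transcripts in each H1299 group.

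In A549 the target alone was called without the block in each comparison with control, 1 of 8 members, and that was 0.00625% of all 16008 genes for siYAP and likewise 0.00625% for siTAZ. With the block 3 of 8 members were called after siYAP, all lower, where 5.68% of all genes were called (3.17% lower and 2.5% higher). After siTAZ 3 of 8 were called, 1 higher and 2 lower, where 13.3% of all genes were called (7.21% higher and 6.12% lower). Each of these counts includes the target, whose fall the pool was designed to cause.

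TEAD1, the leading TEAD transcript of A549, stood at 119, 114 and 103 CPM after siYAP and 117, 96.2 and 97.6 CPM after siTAZ, against 139, 123 and 122 CPM in controls. Both knockdown groups lay below all controls. After siTAZ it fell with the block (-0.31 ± 0.04, adjusted p = 1.88e-06), and this call held without the libraries of any 1 number. Without the block the same size of change did not pass (-0.31 ± 0.10, adjusted p = 0.83). The authors' deposited table gives TEAD1 -0.31 (adjusted p = 4.74e-07) for siTAZ over control.

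After siYAP TEAD1 fell with the block (-0.18 ± 0.04, adjusted p = 0.00709, against 1 without the block), and it did not pass without the libraries numbered 1 (0.0837) or 3 (0.0597). TEAD4 stood at 13.7, 13.7 and 9.66 CPM after siYAP and 15.7, 14.7 and 10.7 CPM after siTAZ, against 16.1, 17.5 and 11.8 CPM in controls. The groups overlapped, but each knockdown library lay below the control with its own number. With the block TEAD4 fell after siYAP (-0.31 ± 0.07, adjusted p = 0.00874), a call lost without the libraries numbered 2 (adjusted p = 0.339), and in the authors' deposited table it stands at -0.31 (adjusted p = 0.188). After siTAZ it did not pass (-0.16 ± 0.07, adjusted p = 0.161 with the block). TEAD2 at 12.6 to 18.3 CPM and TEAD3 at 8.73 to 13.5 CPM overlapped between all A549 groups, and neither passed with or without the block. The 95% intervals without the block were -0.35 to 0.34 and -0.32 to 0.36 for TEAD2 and -0.29 to 0.55 and -0.27 to 0.57 for TEAD3, after siYAP and after siTAZ.

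**Figure D4:**
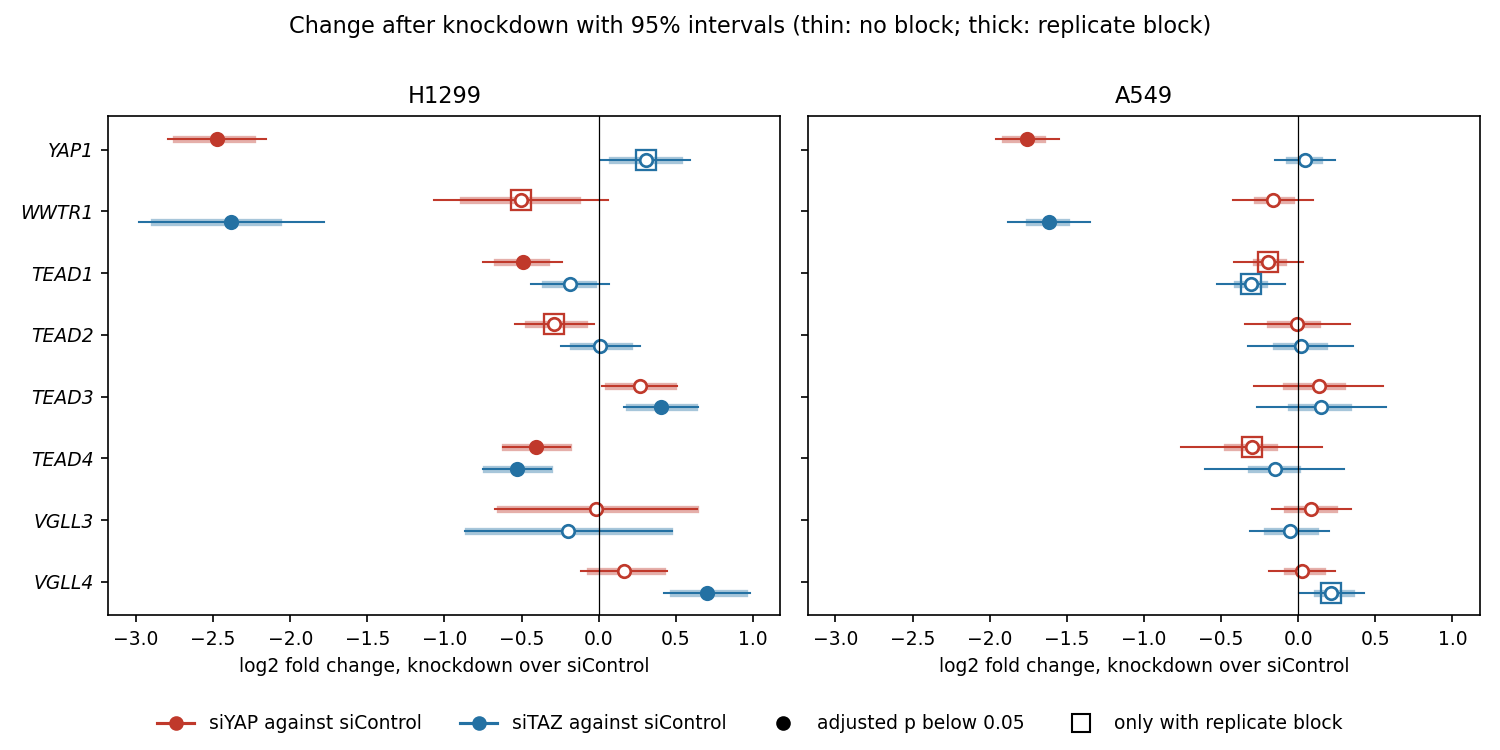
Log2 fold change of each gene in siYAP (red) and siTAZ (blue) libraries over siControl (x axis), for H1299 (left) and A549 (right). Thin and thick lines are 95% intervals without and with the replicate block, filled points passed an adjusted p of 0.05 without it, and squares mark genes that passed with the block alone. Beside the targets, the filled points are TEAD1, TEAD3, TEAD4 and VGLL4, all in H1299.

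VGLL4 (chromosome 3, 11556070 to 11771350, minus strand), the TEAD partner known to oppose YAP and TAZ, rose after siTAZ in H1299. It stood at 51.2, 54.5 and 52.3 CPM in siTAZ libraries, against 31.2, 40.5 and 25.5 CPM in controls, with every siTAZ library above every control (0.70 ± 0.13, adjusted p = 0.00252). The call held without any single H1299 library. After siYAP it stood at 35.5, 36.1 and 37.0 CPM, inside the range of the controls, and did not pass (0.16 ± 0.13, adjusted p = 0.422). Without siControl 2, the control with the highest VGLL4 level, the siYAP difference was 0.35 (adjusted p = 0.0345). In A549, VGLL4 stood at 33.6, 37.9 and 37.1 CPM after siYAP and 37.9, 45.9 and 40.4 CPM after siTAZ, against 33.6, 35.1 and 38.4 CPM in controls. The siTAZ libraries overlapped the controls but each lay above its same-numbered control, and VGLL4 rose with the block (0.23 ± 0.06, adjusted p = 0.0029, against 1 without it). That call was lost without the libraries numbered 2 (0.12, adjusted p = 0.372), and the authors' deposited table gives 0.22 (adjusted p = 0.0716).

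Of the exonic bases of VGLL4, 1596 are shared with ATG7, a gene of autophagy on the opposite strand, and 119 with the antisense gene AC022001.2. Whether counting used the strand is unstated, so reads of such neighbours cannot be told apart. ATG7 itself stood at 48.6 CPM on average after siTAZ in H1299, against 51.6 CPM in controls. The part of such neighbours in the VGLL4 level was not tested. Shared exonic bases also exist for YAP1 (628, with AP000942.2), WWTR1 (795, with WWTR1-AS1, itself at 0.343 to 1.12 CPM) and TEAD2 (319, with CD37, at 2.13 to 4.21 CPM), and none for TEAD1, TEAD3, TEAD4 and VGLL3. Per length, VGLL4 transcripts per TEAD transcript numbered 0.155 ± 0.00744 after siYAP and 0.210 ± 0.0124 after siTAZ in H1299, against 0.113 ± 0.0241 in controls, and both knockdown groups lay above all controls. In A549 they numbered 0.201 ± 0.0164 after siYAP and 0.230 ± 0.0259 after siTAZ, against 0.181 ± 0.0286 in controls, with overlap. The size of these ratios depends on the length used, as the exons of VGLL4 cover 7236 bases and its longest transcript 3725.

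VGLL3 (chromosome 3, 86876388 to 86991119, minus strand), a TEAD cofactor known from muscle, did not pass in any knockdown comparison. It stood at 1.00, 1.44 and 1.05 CPM after siYAP and 1.36, 0.903 and 0.813 CPM after siTAZ in H1299, against 1.55, 0.834 and 1.12 CPM in controls. In A549 it stood at 17.4, 16.7 and 13.7 CPM after siYAP and 14.7, 15.2 and 13.4 CPM after siTAZ, against 13.9, 15.7 and 15.4 CPM in controls. The groups overlapped in both lines, and the intervals of -0.67 to 0.64 and -0.87 to 0.47 in H1299 were wider than those of -0.17 to 0.34 and -0.31 to 0.20 in A549, after siYAP and after siTAZ. A change in H1299 was therefore not detectable at this depth unless it was large.

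Set directly against each other in H1299, siYAP and siTAZ differed in 3 of the 8 genes (siYAP over siTAZ), where 11.7% of all genes were called. These were the targets, whose difference the pools were designed to make, and VGLL4. VGLL4 was lower after siYAP than after siTAZ (-0.54 ± 0.13, adjusted p = 0.0153), and no library of one group reached the other. With the block TEAD1 (-0.31 ± 0.07, adjusted p = 0.00855, against 0.117 without it) and TEAD2 (-0.29 ± 0.08, adjusted p = 0.0234, against 0.123 without it) were also lower after siYAP, making 5 of 8 where 21.5% of all genes were called. Without the libraries numbered 1 or 3 neither passed with the block (adjusted p of 0.102 and 0.117 for TEAD1 and of 0.0873 and 0.116 for TEAD2), while TEAD1 passed with no block when siYAP 2 was left out (-0.47, adjusted p = 0.0163). TEAD4, with a difference of 0.13 ± 0.10 and an interval of -0.09 to 0.34, did not pass, nor did TEAD3 (-0.14 ± 0.11, interval -0.38 to 0.10) or VGLL3 (0.18 ± 0.31, interval -0.48 to 0.84).

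In A549 the targets alone differed between siYAP and siTAZ without the block, 2 of 8 members, which were 0.0125% of all genes. With the block VGLL4 was lower after siYAP there too (-0.19 ± 0.05, adjusted p = 0.0235), making 3 of 8 where 7.04% of all genes were called. It held without the libraries numbered 3 and was lost without those numbered 1 (adjusted p = 0.111) or 2 (adjusted p = 0.379). TEAD1 (0.11 ± 0.10), TEAD2 (-0.02 ± 0.15), TEAD3 (-0.02 ± 0.19), TEAD4 (-0.15 ± 0.20) and VGLL3 (0.14 ± 0.11) did not pass with or without the block.

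Whether the lines responded differently was tested as an interaction, the effect in H1299 minus that in A549. Without the block 0 of 8 members passed for either pool, where 0.0822% of all genes passed for siYAP and 0.379% for siTAZ. At an unadjusted p under 0.05 edgeR's test had 1 member for siYAP (YAP1) and 2 for siTAZ (WWTR1 and VGLL4), and DESeq2's Wald test called 1 member for siYAP (YAP1, -0.72, adjusted p = 0.0376) and 0 for siTAZ. The share of all genes that passed in either way is not given here, so these counts cannot be set against it. With the block 2 of 8 passed for siYAP, where 10.8% of all genes passed. YAP1 fell further in H1299 (-0.72 ± 0.14, adjusted p = 0.00223), as did TEAD1 (-0.31 ± 0.09, adjusted p = 0.0223). For siTAZ 3 of 8 passed with the block, where 17.7% of all genes passed. WWTR1 (-0.85 ± 0.22, adjusted p = 0.0121) and TEAD4 (-0.38 ± 0.12, adjusted p = 0.039) fell further in H1299, and VGLL4 rose further there (0.49 ± 0.13, adjusted p = 0.0129). The differences of TEAD2 (-0.28 ± 0.20 for siYAP and -0.01 ± 0.20 for siTAZ), TEAD3 (0.13 ± 0.22 and 0.24 ± 0.22) and VGLL3 (-0.10 ± 0.29 and -0.15 ± 0.29) passed in neither fit. Nor did WWTR1 (-0.34 ± 0.34), TEAD4 (-0.10 ± 0.22) and VGLL4 (0.14 ± 0.18) for siYAP, or YAP1 (0.25 ± 0.18) and TEAD1 (0.11 ± 0.16) for siTAZ.

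With the block the depth of knockdown thus differed between the lines beside the other genes. Without the block neither target passed in edgeR's test (adjusted p = 0.167 for YAP1 under siYAP and 0.303 for WWTR1 under siTAZ). Without siYAP 2 of H1299 the YAP1 interaction passed even with no block (-0.96, adjusted p = 0.0038), and without siTAZ 2 of H1299 so did that of WWTR1 (-1.36, adjusted p = 0.00456). These libraries kept the most of their targets in H1299 (24.0 and 32.2% of the control mean), so leaving them out enlarges the H1299 effect. Without siControl 2 of H1299 the VGLL4 interaction under siTAZ passed as well (0.69, adjusted p = 0.0245).

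Genes of the Hippo pathway were read from a list of 36, all tested in both lines. It mixes activators of the pathway with inhibitors such as AJUBA. AMOTL2, LATS2 and PTPN14 are also in the list of YAP and TAZ targets given next, so the lists are not separate. In H1299, 11 fell and 0 rose after siYAP (median log2 -0.16, against 0.01 over all genes), where 8.75% of all genes fell and 7.89% rose. With the block 14 fell and 1 rose, where 28.3% of all genes were called. NF2, an upstream activator of the pathway, stood at 38.5 ± 6.68 CPM after siYAP, against 73.7 ± 11.4 CPM in controls (-0.94 ± 0.14, adjusted p = 0.00133). MAP4K5 (-0.87 ± 0.11, adjusted p = 0.000649), a kinase that can activate LATS, and RASSF1 (-0.77 ± 0.13, adjusted p = 0.00239), a scaffold of the MST kinases, fell too. After siTAZ 5 fell and 1 rose (median -0.07), where 23.3% of all genes were called. With the block 7 fell and 1 rose, where 35.5% of all genes were called, and both counts are smaller shares of the list than those. Those that fell included NF2 (-1.16 ± 0.14, adjusted p = 0.000334), RASSF1 (-0.68 ± 0.13, adjusted p = 0.00276), the adaptor FRMD6 (-0.59 ± 0.12, adjusted p = 0.00466) and the kinase STK4 (-0.40 ± 0.09, adjusted p = 0.00661). In A549, 0 of 36 were called without the block. With it 9 fell and 0 rose after siYAP (median -0.09), where 5.68% of all genes were called. After siTAZ 5 fell and 1 rose (median -0.06), where 13.3% of all genes were called. AMOTL2, which binds YAP and TAZ and is also their target, fell after siYAP (-0.52 ± 0.06, adjusted p = 5.1e-07) and after siTAZ (-0.90 ± 0.06, adjusted p = 8.57e-13), as did AJUBA, which inhibits LATS (-0.49 ± 0.05, adjusted p = 4.62e-08, and -0.68 ± 0.05, adjusted p = 5.04e-12).

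Of 22 known YAP and TAZ targets, 20 were tested in H1299, where 7 fell and 1 rose after siYAP (median -0.14) and 6 fell and 2 rose after siTAZ (median -0.19), where 16.6% and 23.3% of all genes were called. With the block 8 fell and 3 rose after siYAP, and 9 fell and 3 rose after siTAZ, where 28.3% and 35.5% of all genes were called. The matricellular genes CTGF (-0.75 ± 0.13 after siYAP, adjusted p = 0.00295, and -1.33 ± 0.13 after siTAZ, adjusted p = 0.000316) and CYR61 (-1.38 ± 0.23, adjusted p = 0.00219, and -1.65 ± 0.23, adjusted p = 0.000693) were among those that fell. CCDC80 rose after both pools (0.74 ± 0.11, adjusted p = 0.00145, and 0.88 ± 0.11, adjusted p = 0.000417). In A549 with the block 8 of 22 fell and 0 rose after siYAP (median -0.11), and 11 fell and 2 rose after siTAZ (median -0.22), where 5.68% and 13.3% of all genes were called. Those that fell after siTAZ were led by ANKRD1 (-1.62 ± 0.11, adjusted p = 2.36e-13). Without the block 0 passed in A549.

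Of 29 other partners and cofactors, 26 were tested in H1299, where 1 rose and 1 fell after siYAP and 6 rose and 2 fell after siTAZ (medians -0.07 and 0.07), where 16.6% and 23.3% of all genes were called. RUNX1, a transcription factor that binds YAP and TAZ, fell after siYAP (-0.53 ± 0.14, adjusted p = 0.0226), and FOSL1, an AP-1 subunit found at TEAD-bound enhancers, fell after siTAZ (-0.86 ± 0.19, adjusted p = 0.00702). The gene that rose after siYAP was NKX2-1, a lung lineage factor with few reads, at 1.07 ± 0.103 CPM after siYAP, against 0.381 ± 0.235 CPM in controls (adjusted p = 0.0232). With the block 1 rose and 8 fell after siYAP, and 8 rose and 6 fell after siTAZ, where 28.3% and 35.5% of all genes were called. In A549 with the block, of 24 tested, 0 were called after siYAP, and 3 rose and 2 fell after siTAZ, where 5.68% and 13.3% of all genes were called, and without the block 0 were called. FOS, another AP-1 subunit, rose there with the block (0.65 ± 0.09, adjusted p = 3.33e-06).

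For each of the 8 genes, the genes most like it across the 18 libraries were sought among 9934 genes with at least 5 CPM on average in each line. Likeness was the Pearson correlation of log2 CPM centred within each line, given as a description, and libraries of a group share their treatment. YAP1 was most like CAB39 (0.96) and EIF4EBP2 (0.96), and WWTR1 most like AZIN1 (0.96) and NIP7 (0.96). VGLL4 was most like DHX40 (0.96) and RSF1 (0.93), TEAD4 most like TUBB4B (0.96) and CCT5 (0.95), and TEAD3 most like SLC27A1 (0.94) and ZCCHC24 (0.92). TEAD1, with FAM91A1 (0.90) and PUM2 (0.89), and TEAD2, with LIMS1 (0.87) and RAB11B (0.84), had weaker matches, and VGLL3 the weakest, with KATNBL1 (0.76) and CELF1 (0.74). No member was among the best matches of another.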

How the data were processed

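Poly(A) RNA-seq of 18 libraries was analysed, 9 per line. The submitters' processing notes name cutadapt (a read trimmer), STAR 2.4.2a (an aligner), DESeq2 and GRCh38. How reads were counted, and whether by strand, was not given in the sources used here. A table for each line, as the authors deposited it, holds unnormalized read counts by gene symbol. The deposited normalized columns (signal) are those counts times a constant per library and were not used. The deposited log2 columns are regularized values in H1299 and batch-adjusted values in A549, per the file headers, and were not used either. The authors' log2 fold changes and adjusted p-values are quoted only where named as such.

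Counts were filtered with filterByExpr (15775 genes tested in H1299, 16008 in A549), scaled by TMM and fitted per line with edgeR 4.0.16 (quasi-likelihood F test, R 4.3.3). The lines were compared in a joint fit of 15816 genes present in both tables. Calls were made at a Benjamini-Hochberg adjusted p below 0.05 over all genes tested. TPM used the union of exons in GENCODE release 29, in which 97.9% of symbols were found. The steps were tested on simulated data.

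Libraries of the same number in different groups correlated at 0.108 to 0.383 in H1299 and 0.384 to 0.729 in A549 (deviations of log2 CPM, prior count 2), each above 0.1, and libraries of different numbers at -0.324 to 0.160 and -0.550 to 0.279, so the numbers were taken to pair the libraries. In the sample descriptions, libraries of the same number also share a code (A, B or C in H1299, and IQ, IY or IZ in A549). No source used here says what the code or the number marks.

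The genes and lists were chosen with earlier results of these data known. All 8 genes with a row are named in every comparison. Of the pathway lists at most the 4 with the smallest adjusted p may be named, and of genes like a member the 2 with the highest correlation. Alternatives were size factors and the Wald test of DESeq2 1.42.0, no filter, the block, fits of only the groups compared, leaving out each library and another gene length. Leaving out numbered libraries with the block, leaving out the A549 libraries numbered 3, and scaling by library totals were added after seeing the data.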

Additional observations from a re-analysis of the deposited data

Results flagged for a closer look

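For 5 genes the change after knockdown differed between H1299 and A549 in a test of that difference with the replicate block (edgeR's quasi-likelihood test, Benjamini-Hochberg adjusted over 15816 genes). None of the 5 passed that test without the block. After siYAP the difference, H1299 minus A549, was -0.72 for YAP1 (adjusted p = 0.00223) and -0.31 for TEAD1 (adjusted p = 0.0223). After siTAZ it was -0.85 for WWTR1 (adjusted p = 0.0121), -0.38 for TEAD4 (adjusted p = 0.039) and 0.49 for VGLL4 (adjusted p = 0.0129). YAP1 and WWTR1 are the targets themselves. With the block the depth of knockdown thus differed between the lines together with the other 3 genes. Its part in their differences was not tested. Line, medium and table cannot be told apart in any of them.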

How the results depend on the processing

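The replicate block moved the members called from 3 to 5 for siYAP against siControl in H1299 (all genes, 16.6 to 28.3%). It moved them from 3 to 5 for siYAP against siTAZ in H1299 (all genes, 11.7 to 21.5%). In A549 they went from 1 to 3 for siYAP (all genes, 0.00625 to 5.68%) and from 1 to 3 for siTAZ (0.00625 to 13.3%). For the difference between lines they went from 0 to 2 for siYAP (all genes, 0.0822 to 10.8%) and from 0 to 3 for siTAZ (0.379 to 17.7%). There DESeq2's Wald test called 1 for siYAP. It changed the calls of members given beside each result and no others of members. With the block but without the libraries numbered 2, 6 and 5 members were called in those H1299 comparisons. Without the libraries numbered 1, 2 or 3, the blocked A549 fits called 2, 2 and 2 after siYAP and 3, 2 and 3 after siTAZ. Leaving out single libraries gave 1 to 5 calls for siYAP in H1299 and 0 to 1 for each difference between lines. The shares of all genes called with libraries left out, or by DESeq2, are not given here. Those member counts therefore cannot be set against all genes. With the longest transcript as the length, the log2 ratio of YAP1 to WWTR1 was -3.75 after siYAP and -1.75 in controls of H1299, and -3.30 after siYAP, -0.031 after siTAZ and -1.70 in controls of A549.

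Between the control cells of the lines, VGLL4 was called at -0.46 and stood at 0.10 in TPM of each table. The latter is below the median of 0.56 over all genes in that scaling. The other sign changes concern members not called in that comparison. Log2 changes of the other sign were, for siYAP in H1299, VGLL3 0.025 (library totals), 0.32 and 0.042 (block without numbers 1 and 3). For siTAZ in H1299, TEAD2 was -0.0022 without a filter and -0.052 with the block without number 3. For siYAP against siTAZ, the block without number 2 gave VGLL3 -0.069 in H1299, and TEAD2 0.0090 and TEAD3 0.077 in A549. For siYAP in A549 it gave TEAD2 0.058 and VGLL4 -0.025. For siTAZ in A549, TEAD2 was -0.10 without the libraries numbered 3 and -0.078 with the block added, and VGLL3 0.0021. In the siTAZ difference between lines TEAD2 was 0.00049 without a filter and 0.067 with library totals. Leaving out single libraries ranged from -0.21 to 0.23 (VGLL3, siYAP), -0.10 to 0.13 (TEAD2, siTAZ), -0.45 to 0.065 (VGLL3, siTAZ) and -0.0023 to 0.42 (VGLL3, siYAP against siTAZ) in H1299. In A549 the ranges were -0.13 to 0.14 (TEAD2), -0.10 to 0.25 (TEAD3) and -0.023 to 0.077 (VGLL4) for siYAP, -0.11 to 0.16 (TEAD2) for siTAZ, and -0.11 to 0.083 (TEAD2) and -0.25 to 0.11 (TEAD3) for siYAP against siTAZ. For the differences between lines they were -0.23 to 0.044 (TEAD4), -0.28 to 0.16 (VGLL3) and -0.011 to 0.34 (VGLL4) for siYAP, and -0.16 to 0.14 (TEAD2) and -0.40 to 0.11 (VGLL3) for siTAZ. The cause was not tested. With 3 libraries a group and 14 to 27 reads of VGLL3 per H1299 library, small changes are not resolved.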
